A study of Arabidopsis thaliana with 6 samples.

Results

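The JAZ (JASMONATE ZIM-DOMAIN) genes of Arabidopsis thaliana encode repressors of the response to jasmonate, a lipid hormone of wounding, defence and flower development. The 10 genes described here, JAZ1 to JAZ10, are defined by their locus names, with no threshold on a measured value, and all 10 were found among the 33602 loci of the count tables. Read counts came from the aerial parts of seedlings, 11 days old, of the snl1/2/3/4/5 quintuple mutant (3 libraries) and of wild type, ecotype Col-0 (3 libraries, the same ecotype as the mutant), which are described as biological replicates. The plants grew in long days (16 h of light and 8 h of dark) and were harvested at ZT5, 5 h after lights on, and no hormone or wounding treatment is named. SNL1 to SNL5 are SIN3-LIKE genes, plant relatives of Sin3, which holds histone deacetylases together in a repressor complex, and the labels do not name the alleles in the mutant.

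In a resting cell, JAZ proteins bind MYC2 and related transcription factors and, through the adaptor NINJA or directly, recruit the corepressor TOPLESS. When jasmonoyl-isoleucine accumulates, the receptor COI1 binds JAZ proteins and marks them for destruction, which frees the MYC factors. JAZ genes are themselves targets of MYC2, so that the released factors renew their own repressors. Some JAZ proteins also bind TOE1 and TOE2, which repress flowering, and the study's title places the mutant in the question of how plants time flowering by day length.

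MYC factors bind the G-box, whose letters CACGTG read the same on both strands, and the sequences before the JAZ genes are shown for that reason. In the RefSeq genome and annotation TAIR10.1, 6 of the 10 members (JAZ2, JAZ3, JAZ6, JAZ7, JAZ8 and JAZ9) had a G-box within the 500 bases before the gene start, 7 sites in all. Of all 32834 windows of the same length and kind, 8.70% held one. These 4 sites are given 5′ to 3′ on the strand of the gene, with the G-box in capitals. They belong to JAZ2, the member whose transcript passed the test, to JAZ7 and JAZ8, the pair whose G-boxes lie nearest to the gene start, and to JAZ3, which has 2 G-boxes and whose transcript level was nearly equal in both genotypes.
JAZ2: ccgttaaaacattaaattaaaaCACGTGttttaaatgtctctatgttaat
JAZ7: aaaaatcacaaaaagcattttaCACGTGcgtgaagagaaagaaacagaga
JAZ8: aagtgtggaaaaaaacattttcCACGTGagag
JAZ3: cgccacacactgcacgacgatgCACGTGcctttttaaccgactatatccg

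JAZ1, JAZ2, JAZ4, JAZ5, JAZ6, JAZ8 and JAZ9 lie on chromosome 1, JAZ7 on chromosome 2, JAZ3 on chromosome 3 and JAZ10 on chromosome 5. In TAIR10.1 the JAZ2 stretch is chr1:28150485-28150534 on the minus strand, and its G-box begins 66 bases before the gene start. The JAZ7 stretch is chr2:14572974-14573023 and the JAZ8 stretch chr1:10596320-10596351, both on the plus strand, with G-boxes that begin 34 and 10 bases before the gene start. The JAZ3 stretch is chr3:6119603-6119652 on the plus strand, with its G-box 82 bases before the gene start, and the other JAZ3 site begins at 140 bases. The JAZ9 and JAZ6 sites are farther away, at 366 and 478 bases. JAZ1, JAZ4, JAZ5 and JAZ10 had no CACGTG in this window. The variant CACATG, also bound by MYC2 and searched on both strands, was found for JAZ1, JAZ9 and JAZ10, and for 20.5% of all windows. The variant AACGTG, searched in the same way, was found for JAZ3, JAZ5 and JAZ6, and for 13.2% of all windows. These are matches of letters, and no binding was measured.

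Total counts lay between 12622416 and 15774357 in the mutant libraries and between 13064598 and 15194748 in the Col-0 libraries, and 19591 loci passed the filter on low counts. The 5 mutated genes were lower in every mutant library, with fitted log2 fold changes between −4.57 (SNL2) and −0.92 (SNL5). SNL2 had 2.32, 2.64 and 7.57 CPM (counts scaled to the TMM-adjusted library total) in mutant replicates 1 to 3, against between 94.1 and 103.5 CPM in Col-0, and mutant replicate 3 was also the highest mutant library for SNL1, SNL3, SNL4 and SNL5. Of all tested genes, 18.3% were higher and 16.5% lower in the mutant (edgeR quasi-likelihood test, Benjamini-Hochberg adjusted p below 0.05). Every count of genes called by this test with all libraries is to be read against these shares. They are too low for counts at an unadjusted p, for which no share of all genes is given here. Leaf markers summed to between 11380 and 14270 CPM in the mutant and between 12460 and 14350 CPM in Col-0. Markers of root hairs and roots summed to between 38.0 and 58.8 CPM in the mutant and between 36.8 and 41.0 CPM in Col-0, and of these 5 genes IRT1, an iron transporter, was higher in the mutant (1.86-fold). Floral organ markers summed to between 13.5 and 26.1 CPM in the mutant and between 2.31 and 3.79 CPM in Col-0, nearly all of it from PI. The other 3 floral markers were under the filter: AP3 had 11, 6 and 10 reads in mutant replicates 1 to 3, against 2, 2 and 1 in Col-0, AG had 3, 4 and 7 reads, against 0, 3 and 1 in Col-0, and AP1 had 1, 0 and 0 reads, against 0 in each Col-0 library. In CPM the mutant libraries were above all Col-0 libraries for PI, AP3 and AG. This was seen for 25.2% of all tested genes, to which AP3 and AG do not belong, and the share among genes under the filter is not given. For AG the lack of overlap rests on 0.232 CPM in mutant replicate 1 against 0.202 CPM in Col-0 replicate 2, from 3 reads each. DESeq2 called 2 floral markers higher, among 5742 genes called in either direction. The part of these other cell types in the JAZ values was not tested.

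Of the JAZ genes, JAZ2 rose in the mutant, 8 did not pass the test, and JAZ8 was too low to enter it. No member fell. Without mutant replicate 1, 5 were called higher (JAZ2, JAZ6, JAZ7, JAZ8 and JAZ9). That fit called 6463 genes in either direction, against 6811 with all libraries. Without Col-0 replicate 2 or 3, 2 were called higher (5333 and 4985 genes in all). Without mutant replicate 3, JAZ1 was called lower (7317 genes in all). For fits with 1 library left out, the shares of all genes called higher or lower are not given here. Without mutant replicate 1 or Col-0 replicate 3, JAZ8 passed the filter through the mutant libraries, where it is high. Among the 9 tested members the median log2 fold change was 0.25, against 0.00 over all tested genes, and 6 of the 9 fitted values were above 0. The 1 of 9 called higher stands against 18.3% of all tested genes, and the 0 called lower against 16.5%. At an unadjusted p below 0.05 the edgeR test gave 2 higher members (JAZ2 and JAZ6) and 0 lower, and limma-voom gave the same 2 counts. DESeq2, which kept all 10 members, gave 4 higher and 0 lower. The share of all genes at that cutoff is larger than at the adjusted p and is not given here. None of the 10 is among the 695 higher or the 480 lower genes of the authors' deposited tables, which hold no log2 fold change smaller than 1 in size.

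**Figure D1:**
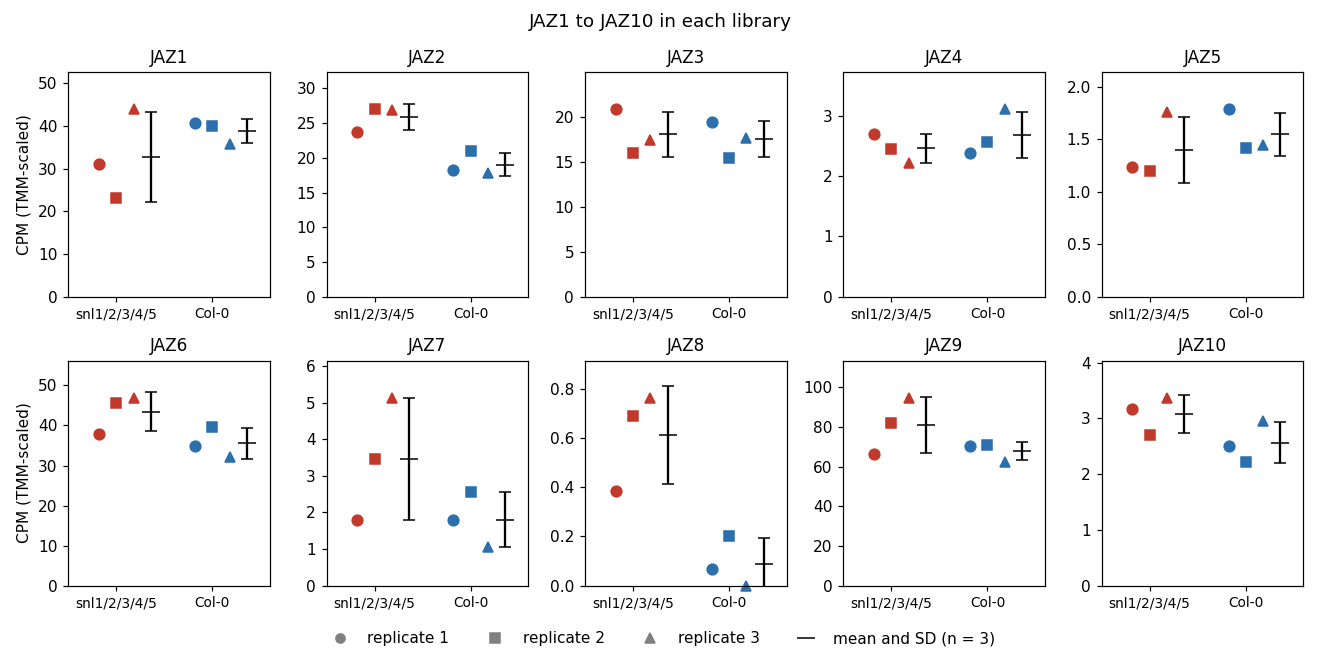
Transcript levels of JAZ1 to JAZ10 in CPM (y axis, each panel with its own scale from 0) in the 3 snl1/2/3/4/5 libraries (red) and the 3 Col-0 libraries (blue), with mean and SD in black. The mutant libraries lie above all Col-0 libraries for JAZ2 and JAZ8 and overlap them for the other 8 genes. Such a lack of overlap, with the mutant above, was seen for 25.2% of all tested genes, to which JAZ8 does not belong.

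JAZ2 and JAZ1 are closely related members that were among the earliest JAZ repressors to be studied, and JAZ2 is known from guard cells, where it affects stomatal closure during bacterial attack. JAZ2 (AT1G74950, named TIFY10B in RefSeq) had 23.7, 27.0 and 26.9 CPM in mutant replicates 1 to 3, against 18.3, 21.0 and 17.8 CPM in Col-0 replicates 1 to 3. All mutant libraries were above all Col-0 libraries. The mean was 25.9 ± 1.90 CPM in the mutant and 19.0 ± 1.69 CPM in Col-0 (SD, n = 3 each), a 1.36-fold difference (log2 fold change 0.44 ± 0.10 SE, edgeR adjusted p = 0.00953, 95% interval 1.17- to 1.58-fold). Leaving out any 1 library gave log2 fold changes between 0.40 and 0.52, each with an adjusted p below the threshold, the largest being 0.0492. In bulk tissue, more or fewer cells that express a gene and more or less of its RNA per cell cannot be told apart.

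JAZ1 (AT1G19180) had 31.1, 23.0 and 43.9 CPM in mutant replicates 1 to 3, against 40.7, 40.0 and 35.7 CPM in Col-0. Mutant replicate 3 was above every Col-0 library and the other 2 mutant libraries were below every one. The coefficient of variation was 32.2% in the mutant and 6.99% in Col-0, and the difference did not pass the test (log2 fold change −0.25 ± 0.20 SE, edgeR adjusted p = 0.346, 95% interval 0.612- to 1.15-fold). Without mutant replicate 3 the log2 fold change was −0.53 and the adjusted p 0.0175, where the other alternatives gave adjusted p-values up to 0.831.

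JAZ5 and JAZ6 are another related pair. JAZ6 (AT1G72450) had 37.9, 45.6 and 46.9 CPM in mutant replicates 1 to 3, against 34.8, 39.7 and 32.1 CPM in Col-0. The groups overlapped through mutant replicate 1 and Col-0 replicate 2. The log2 fold change was 0.29 ± 0.11 SE (edgeR adjusted p = 0.0711, 95% interval 1.03- to 1.45-fold). It passed without mutant replicate 1 (adjusted p = 0.0231) or without Col-0 replicate 2 (0.048), and its adjusted p ranged up to 0.204 over all alternatives. JAZ5 (AT1G17380) was far lower, with 1.24, 1.195 and 1.76 CPM in mutant replicates 1 to 3, against 1.78, 1.41 and 1.44 CPM in Col-0, which rest on 16 to 27 reads per library. The JAZ5 groups overlapped (log2 fold change −0.16 ± 0.25 SE, edgeR adjusted p = 0.654, 95% interval 0.602- to 1.34-fold).

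JAZ3, JAZ4 and JAZ9 form a further subgroup, whose proteins are among those that bind TOE1 and TOE2. JAZ9 (AT1G70700, named TIFY7 in RefSeq) had the most reads of all members, with 66.3, 82.2 and 94.5 CPM in mutant replicates 1 to 3, against 70.2, 71.0 and 62.5 CPM in Col-0. Mutant replicates 2 and 3 were above every Col-0 library, and replicate 1 lay among them. The log2 fold change was 0.25 ± 0.12 SE (edgeR adjusted p = 0.142, 95% interval 0.980- to 1.45-fold), and it passed without mutant replicate 1 (adjusted p = 0.0179, with the other alternatives up to 0.369). JAZ3 (AT3G17860) had 20.8, 15.9 and 17.4 CPM in the mutant, against 19.4, 15.4 and 17.7 CPM in Col-0. In both genotypes replicate 1 was the highest and replicate 2 the lowest library of JAZ3, and the fitted difference was 0.04 ± 0.13 SE on the log2 scale (edgeR adjusted p = 0.816, 95% interval 0.843- to 1.26-fold). JAZ4 (AT1G48500) had 2.71, 2.45 and 2.22 CPM in the mutant, against 2.38, 2.56 and 3.11 CPM in Col-0 (log2 fold change −0.12 ± 0.19 SE, edgeR adjusted p = 0.656, 95% interval 0.678- to 1.25-fold).

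JAZ7 and JAZ8 encode short members without the canonical degron, the stretch by which COI1 holds other JAZ proteins, and JAZ8 is known to resist jasmonate-driven breakdown and to bind TOPLESS directly. JAZ8 (AT1G30135) had 5, 11 and 10 reads in mutant replicates 1 to 3, against 1, 3 and 0 reads in Col-0. Every mutant library was above every Col-0 library, but the counts were too low for the filter. Summed over libraries, 26 reads against 4 give a ratio of 6.69 per total count, with an exact (Clopper-Pearson) 95% counting interval of 2.32 to 26.4 that covers counting error only. An exact permutation test (2-sided, on CPM) gave p = 0.1, and 3 libraries against 3 can give none smaller. JAZ8 was called higher where the filter was dropped (log2 fold change 2.62, edgeR adjusted p = 0.0197, in a fit where 14.1% of 25100 genes were called higher), with DESeq2 on its default settings (0.0369), and in the 2 fits with 1 library left out in which it reached the filter (without mutant replicate 1 or without Col-0 replicate 3, 0.0185 and 0.0448). The 2 fits with 1 library left out admitted JAZ8 through the mutant libraries, where it is high. The fit without a filter and DESeq2 took in every locus with a read in any library. Groups that did not overlap, with the mutant above, were seen for 25.2% of all tested genes, to which JAZ8 does not belong.

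JAZ7 (AT2G34600) had 1.78, 3.46 and 5.12 CPM in mutant replicates 1 to 3, against 1.78, 2.56 and 1.06 CPM in Col-0. The groups overlapped, and the spread within each was wide, with a coefficient of variation of 48.4% in the mutant and 41.6% in Col-0. The log2 fold change was 0.92 ± 0.41 SE (edgeR adjusted p = 0.113, 95% interval 0.989- to 3.63-fold). It passed without mutant replicate 1 (log2 fold change 1.22, adjusted p = 0.0284), and over the other alternatives the adjusted p reached 0.308.

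JAZ10 (AT5G13220) limits the strength of the jasmonate response and is known for splice forms that escape breakdown. It had 3.17, 2.71 and 3.36 CPM in mutant replicates 1 to 3, against 2.51, 2.22 and 2.96 CPM in Col-0. The groups overlapped (log2 fold change 0.26 ± 0.19 SE, edgeR adjusted p = 0.31, 95% interval 0.888- to 1.62-fold). The antisense gene AT5G02045 overlaps JAZ10, and since no source used here gives the strand setting of the counting, its counts may hold reads of both. The splice forms of JAZ genes cannot be told apart in counts per gene. No other member overlaps an annotated gene on either strand, and no member has a copy elsewhere in the genome at 95% identity over 100 bases.

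**Figure D2:**
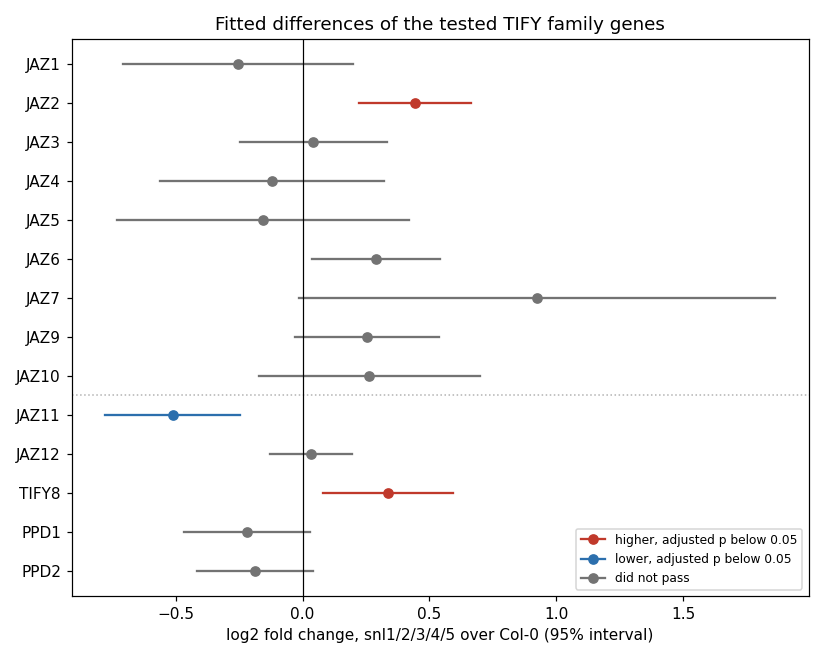
Fitted log2 fold changes (x axis, snl1/2/3/4/5 over Col-0) with 95% intervals for the 9 tested JAZ members (above the dotted line) and 5 other genes of the TIFY family. The intervals of JAZ2, JAZ6 and TIFY8 lie wholly above 0, that of JAZ6 from 0.04, and that of JAZ11 lies wholly below 0; the intervals are not adjusted over genes.

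Levels were compared between members as CPM per kilobase of exon, with exon lengths from RefSeq. A length counts every base that is exon in any transcript of the gene, so genes with more transcript forms can come out longer. JAZ10 has 2215 bases in 2 blocks from 7 transcripts, and JAZ4 has 1889 bases in 6 blocks from 3 transcripts. The order of the members was not tested with other lengths. JAZ9 was first, with 43.7 ± 7.63 CPM per kilobase in the mutant and 36.6 ± 2.55 in Col-0 (SD, n = 3 each). JAZ1, JAZ6 and JAZ2 followed, with means between 18.1 and 20.4 CPM per kilobase in the mutant and between 13.8 and 21.5 in Col-0. In the mutant the ranges of these 3 genes overlapped from one to the next. In Col-0 the range of JAZ1 was above that of JAZ6, while those of JAZ6 and JAZ2 overlapped. JAZ3 had 6.57 ± 0.909 CPM per kilobase in the mutant and 6.36 ± 0.718 in Col-0, and JAZ7 had 4.20 ± 2.03 and 2.19 ± 0.911. JAZ4 and JAZ10, whose ranges overlapped in both genotypes, had means between 1.16 and 1.42 CPM per kilobase, and JAZ5 and JAZ8 were lowest, with 0.624 and 0.762 in the mutant and 0.691 and 0.111 in Col-0. Summed over the 10 genes, JAZ transcripts made up 189, 204 and 243 CPM in mutant replicates 1 to 3, against 192, 196 and 174 CPM in Col-0. The 2 genotypes thus overlapped in the total, and JAZ9 alone gave between 35.1% and 40.2% of it in the mutant and between 35.8% and 36.6% in Col-0.

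Within the mutant, replicate 3 was the highest library for 7 of the 10 members (JAZ1 and JAZ5 to JAZ10), as it was for 37.9% of all tested genes.

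Among relatives outside the 10, JAZ11 fell and TIFY8 rose. JAZ11 had 7.04, 6.23 and 6.04 CPM in mutant replicates 1 to 3, against 8.72, 9.16 and 9.63 CPM in Col-0, with no overlap (log2 fold change −0.51 ± 0.12 SE, edgeR adjusted p = 0.0112). The JAZ11 call held with each library left out, with adjusted p-values up to 0.0465. TIFY8, which shares the TIFY domain but is not a JAZ protein, was 1.26-fold higher (edgeR adjusted p = 0.0478), with overlap between the groups. The TIFY8 call was lost in 9 of 13 alternatives, among them every fit with 1 library left out other than mutant replicate 1, with adjusted p-values up to 0.143. JAZ12 averaged 60.5 ± 2.97 CPM in the mutant and 59.2 ± 2.62 CPM in Col-0 (SD, n = 3 each; edgeR adjusted p = 0.747). Antisense genes overlap TIFY8, JAZ12 and AT3G22275. AT3G22275, which RefSeq annotates as a jasmonate ZIM-domain protein, had 6 reads in the mutant libraries together and 0 in Col-0.

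Genes of the proteins that JAZ repressors work with did not pass the test. Of 8 partners, the receptor COI1, its complex subunit ASK1, the adaptor NINJA, the corepressors TPL, TPR1 and TPR4 and the deacetylases HDA6 and HDA19, none was called by the edgeR test, limma-voom or DESeq2. At an unadjusted p below 0.05 the edgeR test and limma-voom each gave 2 lower, DESeq2 gave 1 lower, and none gave a higher one. The share of all genes at that cutoff is not given here. Without mutant replicate 3, 1 partner was called lower. COI1 averaged 46.6 ± 2.18 CPM in the mutant and 49.5 ± 1.89 CPM in Col-0 (edgeR adjusted p = 0.367), and an antisense neighbour, AT2G39930, overlaps it. NINJA averaged 53.3 ± 5.04 CPM in the mutant and 56.0 ± 0.811 CPM in Col-0 (edgeR adjusted p = 0.523). The 2 lower partners at an unadjusted edgeR p were TPL and TPR1. TPL averaged 206 ± 19.0 CPM in the mutant and 239 ± 6.07 CPM in Col-0 (edgeR adjusted p = 0.0729). TPR1 averaged 76.5 ± 2.78 and 85.2 ± 1.65 CPM (0.0888). In both, every mutant library was below every Col-0 library, and the share of all genes with this pattern is not given here. The antisense gene AT1G15740 overlaps TPL.

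Among transcription factors bound by JAZ proteins, MYC4, JAM1 and EIL1 rose and 5 of the 8 tested did not pass, where 18.3% of all tested genes were higher. MYB21, MYB24 and NIG1 (AT5G46830) were under the filter. MYC4, which acts beside MYC2 and MYC3 in jasmonate responses, had 30.2, 32.5 and 32.5 CPM in mutant replicates 1 to 3, against 21.8, 20.6 and 18.6 CPM in Col-0. The mutant libraries were all above the Col-0 libraries (1.56-fold, log2 fold change 0.64 ± 0.09 SE, edgeR adjusted p = 0.0013). JAM1, which opposes MYC2, and EIL1, a regulator of ethylene responses, were 1.18- and 1.16-fold higher (edgeR adjusted p = 0.0472 and 0.048), and each lost its call in most alternatives, JAM1 in 10 of 13 (up to 0.152) and EIL1 in 11 of 13 (up to 0.143). With any 1 library left out, 1 of these factors was called higher, and without mutant replicate 3 2 were called lower. MYC2 had 101, 103 and 156 CPM in the mutant, against 135, 122 and 141 CPM in Col-0, and did not pass (edgeR adjusted p = 0.519). Without mutant replicate 3 MYC2 was lower, with a log2 fold change of −0.38 (adjusted p = 0.0105, against up to 0.896 in the other alternatives). AT1G32630 overlaps MYC2 on the other strand.

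Of 13 tested genes of jasmonate synthesis, 8 rose, 1 fell and 4 did not pass, where 18.3% of all tested genes were higher and 16.5% lower, and their median log2 fold change was 0.32. The higher genes were LOX2, AOS, AOC1, AOC2, AOC3, AOC4, ACX1 and JAR1. LOX, AOS and AOC enzymes act early in the pathway, ACX1 in its peroxisomal steps and JAR1 at the conjugation with isoleucine. OPR3 and OPCL1, which act between AOC and ACX1, had log2 fold changes of −0.29 and 0.19 (edgeR adjusted p = 0.182 and 0.54), and the lipoxygenase genes LOX3 and LOX6 had −0.91 and 0.07 (0.0873 and 0.489). LOX2, a lipoxygenase of the chloroplast, had 62.3, 120 and 55.6 CPM in mutant replicates 1 to 3, against 35.5, 21.2 and 18.6 CPM in Col-0 (3.16-fold, edgeR adjusted p = 0.00636). AOC4 was 1.64-fold and AOS 1.54-fold higher (edgeR adjusted p = 0.00157 and 0.00248). The gene that fell was LOX4, another lipoxygenase gene, named here after its values were seen, with 1.00, 2.33 and 4.28 CPM in the mutant, against 13.2, 2.49 and 39.1 CPM in Col-0. The groups overlapped, and the count of lower synthesis genes was 0 without mutant replicate 1, Col-0 replicate 1 or Col-0 replicate 3 and 2 without mutant replicate 3 or Col-0 replicate 2. Of 8 tested genes of jasmonate breakdown, AT5G05600, annotated as an oxygenase, rose 1.66-fold, the hydrolase gene ILL6 fell 1.504-fold and the sulfotransferase gene ST2A fell 1.81-fold (edgeR adjusted p between 0.00252 and 0.00462), and 5 did not pass. Without Col-0 replicate 2, 2 breakdown genes were called higher.

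Of 6 tested output genes, 4 rose and 2 did not pass, against 18.3% of all tested genes called higher. The 2 were ERF1 and ORA59, with log2 fold changes of 0.09 and 0.52 (edgeR adjusted p = 0.917 and 0.304). TAT3 and THI2.1 were under the filter, and THI2.1 had no read. The 4 that rose include PDF1.2, which passed the filter on low counts through the mutant libraries, where it is high. CORI3, a gene induced by coronatine, the bacterial mimic of the hormone, had 38.7, 68.8 and 29.9 CPM in mutant replicates 1 to 3, against 3.50, 4.04 and 3.49 CPM in Col-0. That is a 12.5-fold difference with no overlap (edgeR adjusted p = 0.000288). PDF1.2, a defensin of the ethylene and jasmonate branch, had 9, 30 and 20 reads in mutant replicates 1 to 3, against 0, 3 and 0 reads in Col-0 (ratio 20.2, exact 95% counting interval 6.59 to 101). The storage proteins VSP1 and VSP2 were 2.57- and 2.69-fold higher (edgeR adjusted p = 0.033 and 0.0256) but overlapped Col-0 through mutant replicate 3, and both calls were lost with limma-voom (0.0799 and 0.0773) and without any 1 library other than mutant replicate 3 (up to 0.136 and 0.106).

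**Figure D3:**
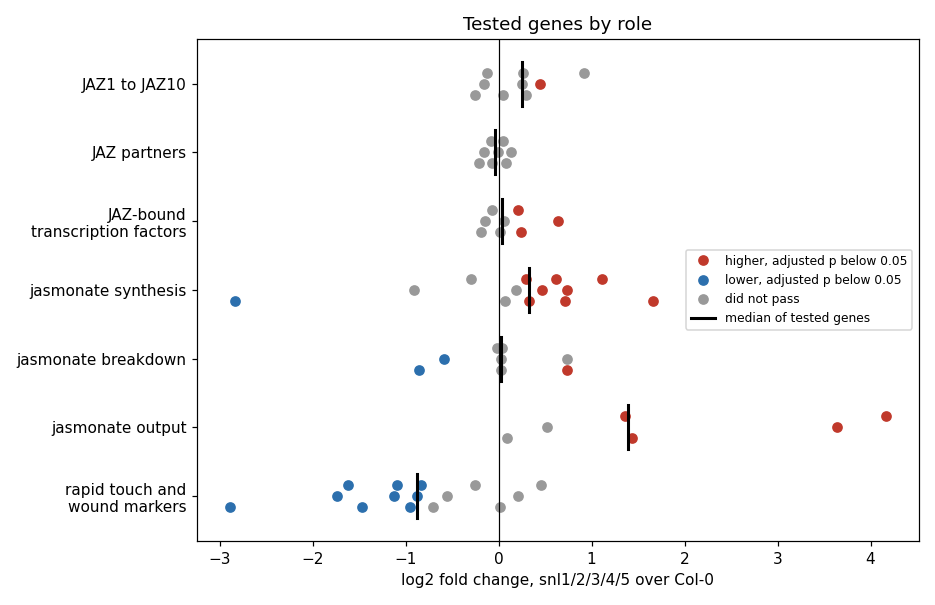
Fitted log2 fold changes (x axis, snl1/2/3/4/5 over Col-0) of each tested gene, in rows by role, with the median of each row as a black bar. Red points were called higher and blue points lower at an adjusted p below 0.05, and among JAZ1 to JAZ10 JAZ2 is the red point.

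Touch and wounding induce JAZ genes quickly, so 15 rapid touch and wound markers were measured beside them. Of these, 9 fell, 0 rose and 6 did not pass, where 16.5% of all tested genes were lower and 18.3% higher. At an unadjusted p below 0.05, edgeR, limma-voom and DESeq2 each gave 11 lower and 1 higher. The share of all genes at that cutoff is not given here. The summed level of the markers was 993, 715 and 1462 CPM in mutant replicates 1 to 3, against 2045, 1598 and 2372 CPM in Col-0. The counts were 3 lower without Col-0 replicate 1, 3 lower and 1 higher without mutant replicate 2, and 5 lower without mutant replicate 1. TCH3, a calmodulin-like gene, was 3.08-fold lower (edgeR adjusted p = 0.0119), and antisense genes overlap it. TCH4, a cell wall enzyme gene, was 1.94-fold lower and the zinc finger gene SZF1 1.78-fold lower (edgeR adjusted p = 0.0457 and 0.0273), and both calls were lost in several alternatives (up to 0.11 and 0.0814). All 15 markers were highest in mutant replicate 3 among the mutant libraries, and 14 of 15 were lowest in mutant replicate 2. JAZ1 had the same order in the mutant, with 113% of the Col-0 mean in replicate 3, 80.1% in replicate 1 and 59.3% in replicate 2. JAZ5 and JAZ10 had this order too, and so did genes outside the members, such as COI1 and HDA19. In Col-0, JAZ1 was lowest in replicate 3 (35.7 CPM), the Col-0 library with the highest summed level of the markers. The part of a touch or wound response in the JAZ1 and MYC2 values was not tested.

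**Figure D4:**
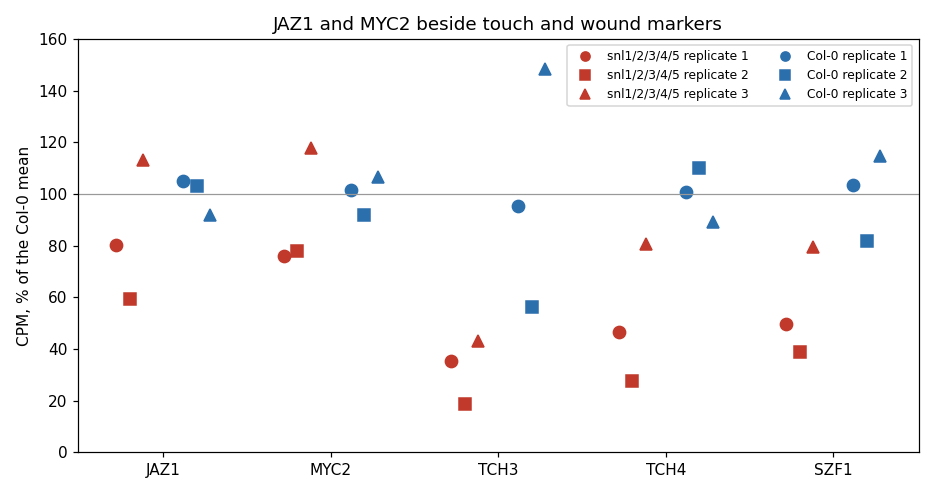
Level of JAZ1, MYC2 and the 3 most abundant touch and wound markers in each library, as a percentage of the Col-0 mean (y axis from 0). Mutant replicate 3 (red triangles) is the highest mutant library for all 5 genes, and for JAZ1 and MYC2 it lies above every Col-0 library.

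Genes whose pattern over the 6 libraries was most like that of each tested member were found among 15059 other genes of at least 5 CPM, by Pearson's r of log2 CPM. With 6 points, of which 3 share a genotype, many genes reach a high r by this measure, and between 32 (for JAZ3) and 1394 (for JAZ2) genes had an r of at least 0.9. Nearest to JAZ1 were FER (0.99) and AT3G50560 (0.99), and nearest to JAZ2 were AT1G26690 (1.00) and AT4G32530 (0.99). JAZ3 was most like FES1 and AT2G45920 (0.98 each), JAZ4 most like CSTF77 and SKIP1 (0.98 each) and JAZ5 most like AT5G51130 and LPPepsilon2 (0.99 each). For JAZ6 they were BIO2 and AT2G22100 (1.00 each), for JAZ7 DFL2 and CDSP32 (1.00 each), for JAZ9 MGT10 and PLC8 (1.00 each) and for JAZ10 RAB18 and AT2G23330 (0.99 each). Of these 18 genes, AT4G32530 was called different between genotypes (log2 fold change 0.45, edgeR adjusted p = 0.00517).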

How the data were processed

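RNA was sequenced from 3 snl1/2/3/4/5 and 3 Col-0 libraries, made with a directional kit from 1.0 µg of total RNA, and grouped and numbered by their titles. TAIR10, cutadapt 1.4, HTSeq, TopHat and edgeR are named in the submitters' processing notes. No source used here gives the other versions or the strand setting. The authors deposited raw counts per gene and library, and all tests started from these. Their deposited lists of changed genes give a log2 fold change and a p-value, and served only to look up the JAZ genes, and 24 columns of per-library values were not used.

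Low loci were removed by filterByExpr in edgeR (minimum count 10, total 15). Counts were scaled by TMM factors (0.966 to 1.02) and tested with edgeR 4.0.16 (glmQLFit and glmQLFTest, genotype as the single term, common dispersion 0.012) in R 4.3.3, with Benjamini-Hochberg adjustment over all 19591 genes and a threshold of 0.05. The same fit was also run on simulated counts with known changes, and the outcome is not given here. CPM use TMM-scaled totals, and folds are the fitted log2 values turned back to a linear scale. Correlations used log2 CPM with a prior count of 2. Replicates differed by more than sampling noise (chi-square per gene 3.71 to 14.5). Intervals of fitted folds include the variation between replicates, and the exact intervals on summed reads cover counting error only. Alternatives were DESeq2 1.42.0, limma-voom (limma 3.58.1), other scalings and filters, a replicate block, and leaving out each library.

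Symbols, exon lengths, overlaps and sequences come from RefSeq's TAIR10.1, which matched 32835 of 33602 loci by locus tag. Copies were searched with BLAST+ 2.17.0. The JAZ genes as a set to describe, the lists and the tests were chosen with earlier results of these data known, and the members within the set are fixed by locus name. Genes named were all members, SNL1 to SNL6, COI1, NINJA, MYC2, JAZ11 to JAZ13, up to 4 called genes of each other jasmonate list by adjusted p, the 3 most abundant touch and wound markers, and the 2 genes most like each tested member. Other genes were named after their values were seen.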

Additional observations from a re-analysis of the deposited data

How the results depend on the processing

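The JAZ2 and JAZ11 calls held in all 13 alternatives. Of the values of single named genes, 652 kept their direction and side of the threshold, 15 came to pass it, 53 no longer passed and 10 changed sign, all 10 with 1 library left out. The 15 include JAZ8 in 2 fits with 1 library left out and in 2 other fits. With all libraries JAZ8 had the permutation test alone, which cannot give a p below 0.1. For JAZ8 these values thus reflect a change of test and not a shift over the threshold. With single libraries left out, the log2 fold change ranged from −0.0694 to 0.13 for JAZ3 (below 0 without Col-0 replicate 2 or mutant replicate 1), −0.0249 to 0.0841 for SNL6, −0.085 to 0.143 for FES1, −0.0036 to 0.0733 for JAZ12, −0.0076 to 0.205 for AT2G45920, −0.185 to 0.0025 for FER and −0.197 to 0.0124 for LPPepsilon2, and none of the reversed values passed the test. The cause was not tested.

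Leaving out 1 library gave 4047 (Col-0 replicate 1) to 7317 genes called over the whole table, with 4379 without mutant replicate 2, against 6811. Such fits gave 1 to 5 higher and 0 to 1 lower JAZ members, 0 to 1 higher TIFY relatives, 0 to 1 lower partners, 1 higher and 0 to 2 lower JAZ-bound factors, 0 to 2 lower synthesis genes, 1 to 2 higher breakdown genes, 1 to 4 higher output genes, and 3 to 11 lower and 0 to 1 higher touch and wound markers (the last alternative was chosen after seeing the data). DESeq2 on its default settings gave 2 higher JAZ members, 0 higher TIFY relatives, 1 higher factor and 2 lower synthesis genes. Without a filter these were 2 higher JAZ members, 0 higher TIFY relatives and 1 higher factor. Library totals alone gave 1 higher factor. limma-voom gave 0 higher TIFY relatives, 0 lower synthesis genes and 2 higher output genes.

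Replicate numbers did not pair the libraries as a whole. Same-numbered deviations correlated at 0.0136, 0.148 and −0.0561, and not every library correlated best with its own number. Some genes did share an order. Summed touch and wound markers were highest in replicate 3 and lowest in replicate 2 in both genotypes. Of the 15 markers, 7 were highest in Col-0 replicate 3. A replicate block lowered the SE of some genes, such as TCH3 and MYC2, and raised that of others, such as JAZ4 and ILL6. With a replicate block 5874 genes were called, of which 5706 were among the 6811, the JAZ2 log2 fold change was 0.44 (edgeR adjusted p = 0.0163), and there were 0 higher TIFY relatives, 1 higher factor and 2 lower synthesis genes. Low depth limits JAZ8, JAZ13 and PDF1.2, with 26, 6 and 59 reads in the mutant libraries together and 4, 0 and 3 in Col-0. PDF1.2 was under the filter, and has no value, without mutant replicate 2 and at a minimum of 1 CPM in 3 libraries.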

Other observations

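SNL6, which the genotype does not name, averaged 36.7 ± 2.93 CPM in snl1/2/3/4/5 and 35.7 ± 2.22 CPM in Col-0 (SD, n = 3 each; edgeR adjusted p = 0.753), and it shares sequence with AT1G10250. The remaining relatives of the JAZ genes, PPD1 and PPD2, which limit leaf growth, had log2 fold changes of −0.22 and −0.19 (edgeR adjusted p = 0.149 and 0.178), and the PPD1 groups did not overlap. No cause of the differences between genotypes was tested.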
